A study of Drosophila melanogaster with 2 samples.

Results

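Divergent shared promoters are stretches of the genome from which 2 protein-coding genes are transcribed in opposite directions. Of the 8399 regions bound by a tagged CG10631 protein that passed the comparison of replicates by the irreproducible discovery rate (IDR), 748 (8.91%) lay at such promoters. A region was taken when its summit, the position of the highest signal, was within 500 bp of annotated start sites of protein-coding genes on both strands of the dm6 assembly. The choice used the position of the summit and the annotation and did not use the signal. Another 1623 regions (19.3%) had their summit within 500 bp of protein-coding starts of 1 strand only, and 6028 were farther from any such start. The 748 regions made up 31.5% of the 2371 regions at protein-coding promoters, and they touched 679 different gene pairs when each summit was given its nearest start on either strand.

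The material was chromatin of whole Drosophila melanogaster white prepupae, the stage that opens metamorphosis. The animals were of a transgenic line that stably expresses CG10631 with a C-terminal green fluorescent protein, and the chromatin was precipitated with an antibody to that tag. All samples belong to 1 group with 2 biological replicates, numbered 2 and 3, so no condition could be compared with another. Sex was not collected and the age is unknown, and the promoter that drives the transgene is not named in the sources used here. The list of each replicate and the merged list built from both hold 30000 regions apiece, and read depth per replicate is unknown. In whole animals, binding in few cells and weak binding in many cells cannot be told apart. A list from untagged animals or input DNA was not used here, and regions and genes are not replicates, so no p-value was computed. Intervals given for shares are 95% Wilson intervals and cover counting error only.

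Head-to-head genes are common in the compact Drosophila genome, and many of them encode proteins that every cell needs, such as ribosomal proteins and enzymes of RNA and mitochondrial metabolism. A short open stretch between the genes serves both directions, and general factors and insulator proteins are known to bind there. DREF and BEAF-32, which recognise sequences with CGATA, and M1BP, which recognises Ohler motif 1, are the best known of these in Drosophila. CG10631 is annotated as a protein-coding gene, and a role for its product is not given in the sources used here.

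Sequences between the start sites are shown for some of the strongest peaks, to show the DNA around these summits and where its longest stretch of A and T lies, and for single examples with a known promoter motif. Each runs 5′ to 3′ on the plus strand of dm6, from the start of the minus-strand gene to the start of the plus-strand gene, so both genes point away from it. In the first 4, capitals mark the longest run without G or C, the leftmost where runs tie. In Atat|Shc they mark the DREF element TATCGATA, and in Hs2st|RanGAP the Ohler motif 1 core GGTCACAC as read on either strand. Tcs5|CHMP2B (chr3L:5139395-5139619) had its summit at base 111 of 225. Art3|mRpS10 (chr3R:15229408-15229665) had it at base 121 of 258. In fws|Lamtor3 (chr2L:17481029-17481231) it was base 117 of 203, and in Mnat9|CG1792 (chr3R:31616160-31616303) base 12 of 144. The printed interval of the last holds none of the 11 motifs searched, though the window around its summit, which reaches past the interval, holds CAGCTG and CAGTGC. The summit was at base 129 of 253 in Atat|Shc (chr3L:9426758-9427010), with the motif at bases 203 to 210. In Hs2st|RanGAP (chr2L:19444750-19445048) it was base 144 of 299, with the motif at bases 281 to 288. This motif lies more than 100 bp from the summit, outside the window searched there. The shares of summits with motif 1 given below therefore do not count it.
Tcs5|CHMP2B: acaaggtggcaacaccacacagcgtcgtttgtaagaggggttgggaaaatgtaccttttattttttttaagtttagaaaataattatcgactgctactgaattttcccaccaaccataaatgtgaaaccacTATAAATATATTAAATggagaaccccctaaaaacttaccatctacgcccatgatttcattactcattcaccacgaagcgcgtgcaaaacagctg
Art3|mRpS10: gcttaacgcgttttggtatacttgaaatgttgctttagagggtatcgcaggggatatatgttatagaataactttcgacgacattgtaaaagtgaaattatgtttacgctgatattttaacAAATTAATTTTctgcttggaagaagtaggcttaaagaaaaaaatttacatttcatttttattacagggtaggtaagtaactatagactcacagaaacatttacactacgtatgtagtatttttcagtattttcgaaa
fws|Lamtor3: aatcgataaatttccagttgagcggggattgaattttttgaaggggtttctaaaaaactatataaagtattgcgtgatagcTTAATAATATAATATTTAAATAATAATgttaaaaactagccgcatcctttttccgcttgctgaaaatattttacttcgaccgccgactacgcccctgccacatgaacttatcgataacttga
Mnat9|CG1792: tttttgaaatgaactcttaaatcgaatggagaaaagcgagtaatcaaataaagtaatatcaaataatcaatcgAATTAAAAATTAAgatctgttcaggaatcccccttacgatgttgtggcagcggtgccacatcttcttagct
Atat|Shc: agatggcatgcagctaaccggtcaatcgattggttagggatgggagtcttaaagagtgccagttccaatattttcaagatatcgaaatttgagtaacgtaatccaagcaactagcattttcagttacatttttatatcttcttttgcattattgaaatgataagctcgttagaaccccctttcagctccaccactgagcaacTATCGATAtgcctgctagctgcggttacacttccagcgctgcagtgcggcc
Hs2st|RanGAP: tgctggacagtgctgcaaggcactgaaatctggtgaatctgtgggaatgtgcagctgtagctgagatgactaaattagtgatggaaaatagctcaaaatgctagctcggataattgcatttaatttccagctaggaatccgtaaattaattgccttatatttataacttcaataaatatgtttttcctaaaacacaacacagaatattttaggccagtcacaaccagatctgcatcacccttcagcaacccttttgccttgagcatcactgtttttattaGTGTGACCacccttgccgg

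The longest A/T run of fws|Lamtor3 spanned 27 bases, at bases 82 to 108, and ended 9 bases before the summit. It spanned 16 bases in Tcs5|CHMP2B, 11 in Art3|mRpS10 and 13 in Mnat9|CG1792. Art3|mRpS10 holds another run of 11 bases farther to the right, which is not marked. In none of the 4 did the marked run hold the summit base itself. In the 2 printed examples with a marked promoter motif, the motif lay nearer to the start of the plus-strand gene than the summit did. At Myo95E with TBC1d7, not printed here, the order was the other way. Its DREF element was at bases 4 to 11 and its summit at base 187 of 230. No preferred side is read from these single examples.

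The strongest peak at a shared promoter lay between Tcs5, a kinase-like subunit of the complex that modifies transfer RNA, and CHMP2B, a subunit of the ESCRT-III membrane remodelling machinery. Its signal, in the units of the peak caller, was 1288 in replicate 2 and 1363 in replicate 3, and 2642 in the merged list, where it ranked 6th of all regions (3L, 5139311 to 5139692). The signals are the authors' values per region and serve here to rank regions within a list. The next was at Pex11ab, a factor of peroxisome division, and CG8320 (2R, 15992305 to 15992698), with 1225 in replicate 2, 1216 in replicate 3 and a merged rank of 12. Art3, an arginine methyltransferase, and mRpS10, of the mitochondrial ribosome, followed with 1114 in replicate 2 and 1248 in replicate 3. Chro, a protein of interband chromatin, and Ssl1, a subunit of the general factor TFIIH, had 1161 in replicate 2 and 1186 in replicate 3 (3L, 22878698 to 22879097). These 4 were among the 20 strongest regions of the merged list, and in each the replicates were close to one another.

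The other 8 of the 12 strongest had merged signals between 1697 and 2099. The first of those named here lay at mRpS23, another mitochondrial ribosomal protein gene, with CenG1A, a GTPase-activating protein of Arf (2099). Fbw5 with CG9147 had a signal of 1941 and mRpL23 with CG9004 one of 1866. Pdrg1 with Pal1, which encodes an enzyme of peptide amidation, had 1853, and CG13390 with CG17294 had 1844. The gene fws encodes a subunit of the COG complex of the Golgi and Lamtor3 a scaffold of lysosomal signalling (1714). CG8372 with CG8360 closed the set at 1697. Of these 12 pairs 3 held a mitochondrial ribosomal protein gene. Counted by genes, 60 of the 5141 in opposite-strand pairs with starts at most 1000 bp apart were of this kind. Where such a pair had a summit near both starts, it was 26 of 1397 genes. The 12 were picked by signal, so the count of 3 is a description only.

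The strongest region with 3 or more genes in reach was in the pre-mod(mdg4) locus, where separately annotated precursors are trans-spliced to the mod(mdg4) transcript (3R, 21365228 to 21365633). Its signal was 568.5 in replicate 2 and 597.1 in replicate 3, its merged rank was 133, and 10 annotated genes had a start within 500 bp. In all, 716 regions had 2 genes within 500 bp and 32 had 3 or more.

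Signals at shared promoters were higher than at other promoters. The median merged signal was 283 at shared promoters (quartiles 174 to 486, range 100.1 to 2642), 205 at other protein-coding promoters and 180 elsewhere, and the median ranks among the 8399 regions were 2547, 3821 and 4503. The upper 50% of the list held 520 regions at shared promoters (69.5%), against 54.3% of those at other promoters and 46.4% of those elsewhere. The distributions overlapped over nearly their whole range: the highest signal at a single-strand promoter was 3942. The replicate regions that overlapped these peaks kept the same order. Their median ranks in the replicate 2 list were 2479 at shared promoters, 3925 at other promoters and 4560.5 elsewhere. In the replicate 3 list these were 2627, 3782 and 4505.5. The class of each peak came from its merged summit, and peaks without a replicate region were left out. By its own summits, replicate 2 had its median shared-promoter rank at 31.0% of its strongest 8399 regions, and replicate 3 at 33.2%. The merged list was built from both replicates, so these orders are not independent of it.

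Along the ranking of the merged list, shared promoters made up 28% of regions 1 to 100 (20.1 to 37.5%), 16.5% of regions 101 to 500 and 5.48% of regions 4001 to 8399. Below the IDR list they made up 2.68% of regions 8400 to 15000 and 1.16% of the last 15000. Regions at single-strand promoters fell less steeply, with 32% of the first 100 and 11.8% of the last 15000. In replicate 2 shared promoters made up 30% of the first 100 regions and 1.03% of the last 15000, and in replicate 3 they made up 25% and 1.23%.

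**Figure D1:**
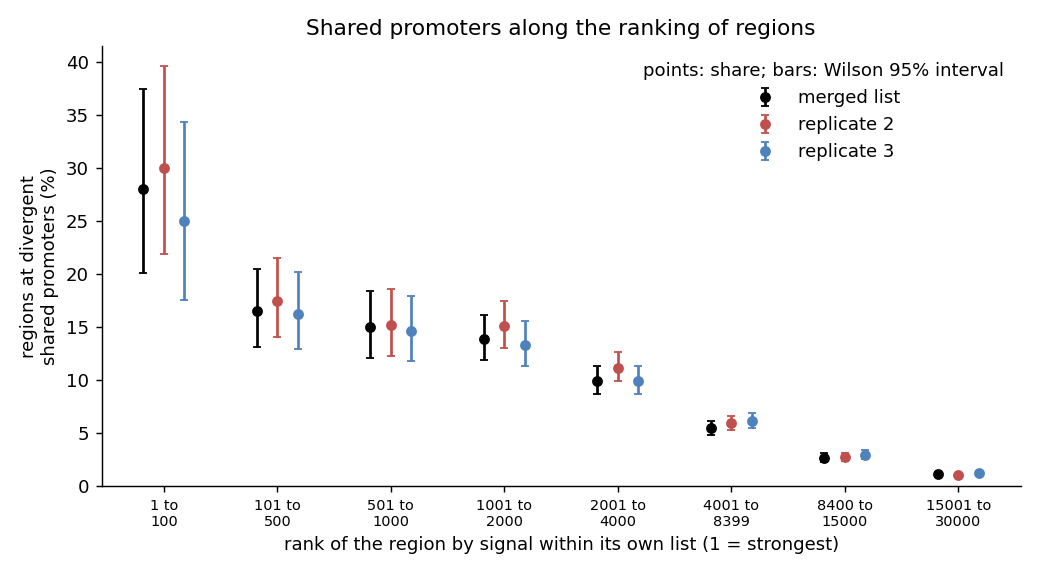
Share of regions at divergent shared promoters (vertical axis, percent) in successive classes of rank by signal (horizontal axis) in the merged list and in each replicate list; lines are 95% Wilson intervals. All 3 lists decline from the strongest class, at 28%, 30% and 25%, to the weakest, at 1.16%, 1.03% and 1.23%.

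The territory that meets the rule, all positions within 500 bp of protein-coding starts of both strands, covers 1675 kb or 1.30% of the chromosome arms. It held 44.7 summits per 100 kb (95% Poisson interval 41.5 to 48.0). The territory of other protein-coding promoters held 11.9 per 100 kb (11.3 to 12.5) and the remainder 5.29 (5.16 to 5.43). At head-to-head genes every position of the shared territory is upstream of at least 1 start. The territory of other promoters also takes in stretches that are only downstream of a start. The part of this difference in the densities was not tested.

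Seen from the genes, a summit lay within 500 bp of a start in 19.4% of the 13968 protein-coding genes. Of the 5141 genes in an opposite-strand pair with starts at most 1000 bp apart, 1630 had one (31.7%, 30.4 to 33.0%), against 1082 of the 8827 genes in no such pair (12.3%, 11.6 to 13.0%). The annotation holds 2720 such pairs, and 732 of them (26.9%) had a summit within 500 bp of both starts, 703 of these among the 2615 pairs in head-to-head order. The pairs with a summit near both starts held 1397 genes, or 27.2% of the genes in pairs. A summit near only 1 of the genes was rarer, at 233 pairs (8.57%). The 500 bp windows of close starts overlap, so a summit near 1 start is often near the other by construction. By chromosome arm, the share of pairs with a summit near both starts was 30.5% on 3R, 30.1% on 3L, 27.7% on 2L, 23.9% on X and 20.7% on 2R (17.6 to 24.3%), and 4 of 11 pairs on chromosome 4 had one.

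The distance between the starts went with these shares. A summit near both starts was found at 21.8% of pairs with starts 0 to 99 bp apart (91 of 418, 18.1 to 26.0%) and at 19.4% of those 100 to 199 bp apart (68 of 350, 15.6 to 23.9%). At 200 to 299 bp the share was 36.9% (196 of 531, 32.9 to 41.1%), at 300 to 399 bp 41.7% (164 of 393, 37.0 to 46.7%) and at 400 to 499 bp 35.1%. The intervals on either side of 200 bp did not overlap. In replicate 2 alone, from as many top regions as the IDR list holds, the shares were 20.9% at 100 to 199 bp and 40.9% at 200 to 299 bp, and in replicate 3 alone they were 20.3% and 38.8%.

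At 600 to 799 bp the share near both starts was 10.5% and at 800 to 1000 bp 1.56%, where the stretch within 500 bp of both starts shrinks by construction. A summit near at least 1 of the genes was still found at 31.8% of pairs 600 to 799 bp apart and 38.5% of pairs 800 to 1000 bp apart, against 24.9% at 100 to 199 bp and 41.4% at 200 to 299 bp. For this count the stretch searched grows with the distance, while for the count near both starts it is longest at the narrowest pairs.

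**Figure D2:**
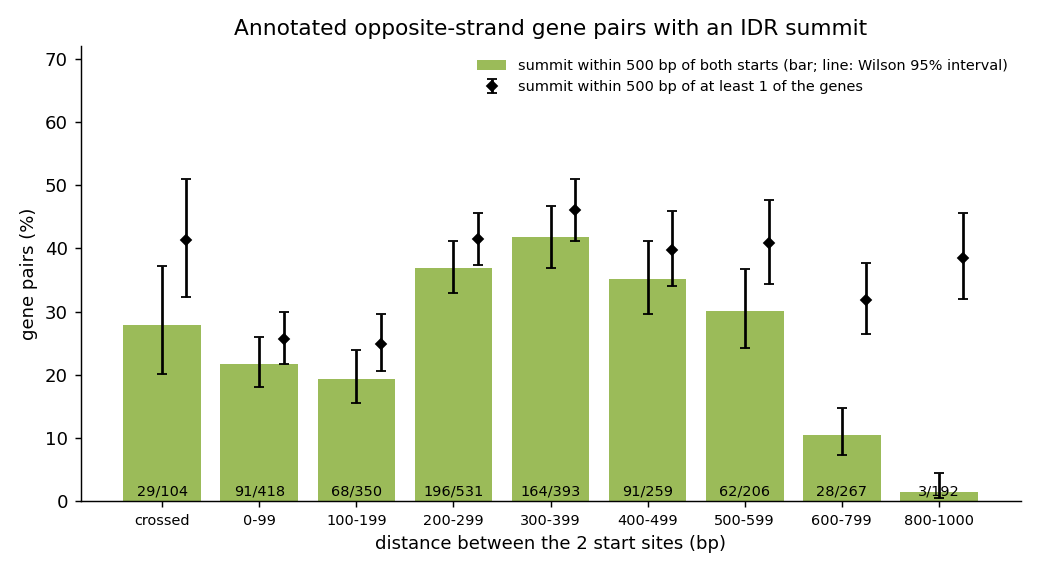
Share of annotated opposite-strand pairs (vertical axis, percent) with an IDR summit near both starts (bars) or near at least 1 of the genes (diamonds), by the distance between the starts in bp (horizontal axis); lines are 95% Wilson intervals and the fractions count pairs with a summit near both starts. Bars stand at 19.4% for 100 to 199 bp and at 36.9% for 200 to 299 bp.

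The summit tended to lie inside the interval between the genes. Of the 748 summits, 733 were at pairs in head-to-head order and 15 at pairs whose transcripts overlap at their starts. The starts of the head-to-head pairs were a median of 319 bp apart (quartiles 241 and 438). A total of 624 summits (83.4%, 80.6 to 85.9%) lay between the starts. The summit was upstream of the minus-strand start at 671 regions and of the plus-strand start at 692. Its median distance was 110 bp from the nearer start and 217 bp from the farther one. Single-strand promoters had their summit a median of 186 bp upstream of the nearest start, against 103 bp at shared promoters, and 84.2% were upstream in both classes. Much of this follows from the rule and from the choice of nearest starts, since 2 starts leave less room between them.

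Within the interval the summit favoured neither strand. With the minus-strand start at 0 and the plus-strand start at 1, the median position was 0.523 over the 666 regions with starts at least 100 bp apart (quartiles 0.375 and 0.690), 0.517 by the summits of replicate 2 and 0.526 by those of replicate 3. The strongest peak of each pair had its median at 0.499, and 341 of 604 such peaks (56.5%, 52.5 to 60.4%) lay in the central tercile of the interval. As the interval widened, the strongest summit lay farther from both starts. For a summit between the starts the 2 distances add up to the interval, so their sum grows by construction. A wider interval also leaves more room for the distance to the nearer start, so no preferred position is read from its growth. The median distances of the strongest summit to the nearer and the farther start were 95 and 161 bp at intervals of 200 to 299 bp. They were 129 and 220 bp at 300 to 399 bp, and 160.5 and 320.5 bp at 400 to 599 bp.

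Below 100 bp, 53 of the 61 strongest summits lay outside the interval (86.9%). The median distance of the 61 from the nearer start was 77 bp. So short an interval is a small part of the stretch within 500 bp of both starts, so a high share outside it arises by construction. Pex11ab with CG8320, 33 bp apart, had its summit 120 bp upstream of the Pex11ab start and 87 bp inside CG8320. At mRpL23 with CG9004, 50 bp apart, it lay 59 bp inside mRpL23 and 109 bp upstream of CG9004. The signal at these narrow pairs was no lower, with a median of 333 at 0 to 99 bp, 321 at 100 to 199 bp, 325 at 200 to 299 bp and 221 at 500 to 599 bp.

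**Figure D3:**
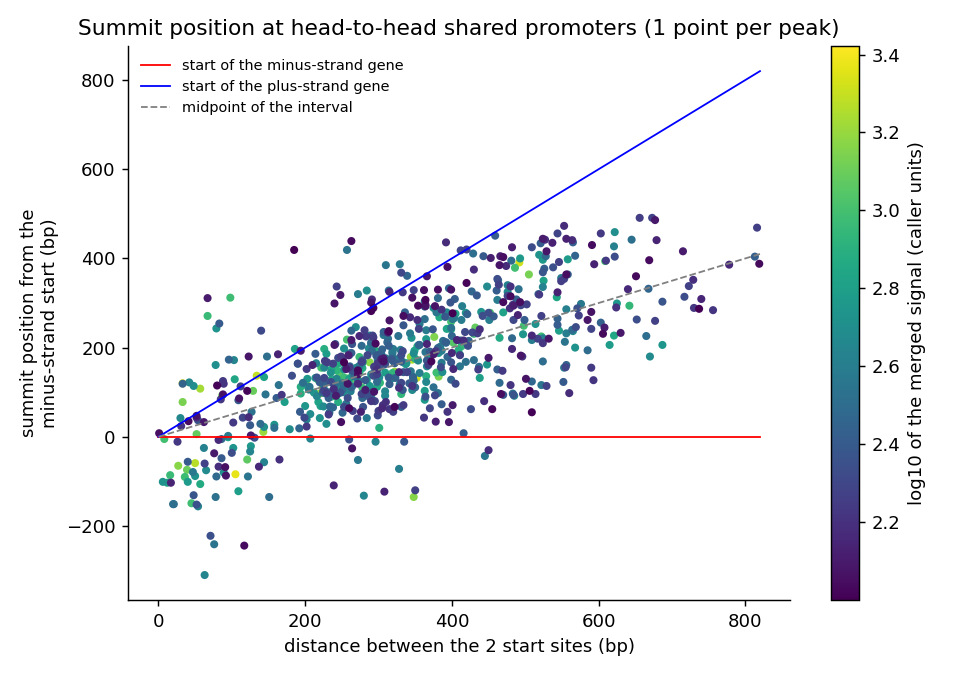
Position of each of the 733 head-to-head summits (vertical axis, bp from the minus-strand start) against the distance between the starts (horizontal axis, bp), coloured by log10 of the merged signal. The coloured lines are the starts and the dashed line the midpoint; 620 points lie between the starts, and at distances below 100 bp most lie outside.

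At the 500 bp limit, the peaks inside it and farthest from a start were at vari with CG9328 and at CG3735 with Taldo, both 491 bp from the farther start (signals 190 and 181), and at Nepl19 with Nepl20, 490 bp from it (472). Just outside lay summits at CG5946 with RpL10Ab and at mRNA-cap with CG32599, both 501 bp away (155 and 152), and at stwl with CG3919, 503 bp away (213).

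A total of 69 pairs held 2 of the peaks and none held more. In 65 of them the summits were 199 to 250 bp apart, with a median of 204 bp over the 69. The whole IDR list has no neighbouring summits less than 199 bp apart, 583 at 199 to 250 bp and 24 at 251 to 301 bp, so that spacing is not particular to shared promoters. At CG3437 with CG3552, whose starts are 243 bp apart, the stronger of the peaks had a signal of 1598 and the weaker one 187. The stronger signal was a median of 1.86 times the weaker.

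The 748 peaks come from a list that had passed the IDR comparison of these same replicates. Agreement between the replicates at these peaks is therefore not independent of how the list was made. Within the set, the replicates were closer on the strong regions than on the weak ones. A region in both replicate lists overlapped 713 of the 748 peaks (95.3%, 93.6 to 96.6%), against 98.6% at other promoters (97.9 to 99.1%) and 99.6% elsewhere. Replicate 2 lacked 8 and replicate 3 lacked 27. Of the 80 IDR regions lacking from a replicate list, 35 (43.75%) were at shared promoters, which hold 8.91% of the list. The strongest was at SerRS, encoding seryl-tRNA synthetase, with CG17260, whose signal was 512 in replicate 2 while replicate 3 lists no region there (merged 977). EMC6, of a membrane protein insertion complex, with the nuclear receptor gene Hr96 had 338 in replicate 2 and likewise none in replicate 3 (merged 676).

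Where both lists had a region, 71 peaks (9.96%) had a ratio above 1.5 between the replicates once the median ratio of replicate 3 to replicate 2 over all IDR peaks, 1.05, had been divided out. That share was 13.75% at other promoters and 11.1% elsewhere. In quintiles of the shared-promoter peaks by signal, from the strongest to the weakest, 0, 4 (2.76%), 6 (4.35%), 20 (14.2%) and 41 (28.9%) differed that much. The summits of the replicates lay a median of 9 bp apart in the strongest quintile and 25 bp in the weakest. The largest ratios by this match were at the weaker of 2 neighbouring peaks at PIG-L with psidin and at RpL18 with Neos, where 1 replicate region was matched to both peaks, so no difference between replicates is read from them. Such a doubly matched region occurred at 32 of the 713 peaks. Without them 62 of 681 peaks passed 1.5-fold (9.10%, 7.17 to 11.5%), against 12.7% at other promoters and 10.5% elsewhere, with 0 of 145 in the strongest quintile and 36 of 127 in the weakest (28.3%). Among these, Fibp with Deaf1, named after its values were seen, had the highest ratio, with 234 in replicate 2 and 66.3 in replicate 3, which add up to 300.2, against a merged signal of 436.

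**Figure D4:**
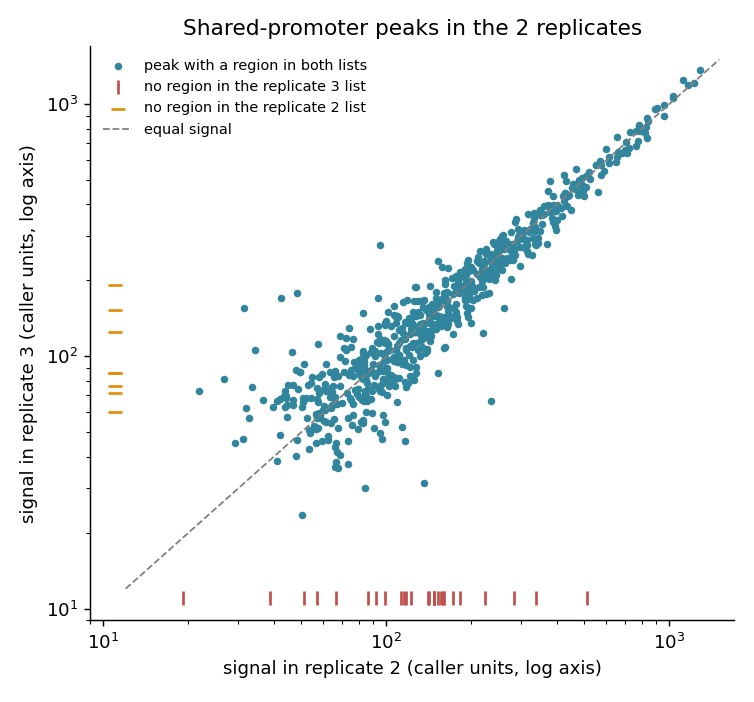
Signal of each shared-promoter peak in replicate 3 (vertical axis) against replicate 2 (horizontal axis), in caller units on log axes; ticks at the margins are the 27 peaks with no region in the replicate 3 list and the 8 with none in the replicate 2 list. The 713 points close in on the dashed line of equal signal as the signal grows.

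Of all genes in pairs, 27.2% were in a pair with a summit near both starts, and 23 lists of genes by name are set against that share as a description, with no test. Among mitochondrial ribosomal protein genes it was 26 of 60 (43.3%, 31.6 to 55.9%), led by mRpS10 and mRpS23. Genes of tRNA and rRNA modification had 11 of 26 (42.3%, 25.5 to 61.1%), led by Tcs5 and by Elp5 of the Elongator complex, which lies beside CG1275 (signal 1367). Aminoacyl-tRNA synthetases had 10 of 24 (41.7%), led by SerRS and by IleRS beside Hem (659). Cytosolic ribosomal proteins had 20 of 55 (36.4%, 24.9 to 49.6%), led by RpL34b beside CG8132 (766) and RpL32 beside CG7943 (609).

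Autophagy genes, whose products enclose and degrade cytoplasm and are active in the remodelling of larval tissue at metamorphosis, had the highest share of the lists with over 10 genes in pairs, 10 of 16 (62.5%, 38.6 to 81.5%). Atg17, a scaffold of the initiating kinase complex, lies beside Xe7 and had 492 in replicate 2 and 452 in replicate 3 (3R, 5669287 to 5669673). Atg2, a lipid transfer protein, lies beside CG12093 and had 423 in replicate 2 and 434 in replicate 3 (3L, 2773963 to 2774193). The median merged signal over the 10 genes, each by its strongest peak, was 451. It was 302 over the strongest peak of each pair and 283 over all shared-promoter peaks. Of the 24 genes of the ecdysone response, the steroid pathway that drives this stage, 5 were in opposite-strand pairs and 3 of those in a pair with a summit. These were Hr96, the coactivator gene tai beside CG9586 (459), and usp, a subunit of the ecdysone receptor, beside CG4313 (283).

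Subunits of the transcription machinery had 19 of 56 genes (33.9%), led by MED30 of the Mediator complex beside Rev1 (905) and the RNA polymerase II subunit gene Polr2B beside 140up (837). Replication, repair and cell cycle genes had 20 of 58 (34.5%), led by PolD2, of DNA polymerase delta, beside CG13933 (978), and Cdk12 beside SAK (543). Vesicle traffic had 22 of 67 (32.8%), led by Vps33B beside Fur1 (1199) and Rab3GAP1 beside CG14352 (526). Oxidative phosphorylation had 16 of 48 (33.3%), led by the complex I genes ND-ASHI beside Fum1 (953) and ND-MWFE beside TppII (644). The chromatin list had 6 of 22 (27.3%), led by Chro and by brm, the ATPase of the Brahma remodeller, beside Arl1 (1145). Its median signal of 893 was the highest of the lists.

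The remaining lists with a summit ran from 19.2% to 40%. Ribosome biogenesis had 8 of 23 (34.8%), led by l(3)72Dn beside Tmx3 (588) and Non2 beside Mrtf (310). Mitochondrial import and dynamics had 4 of 10 (40%), led by Miro beside spas (442) and Tom7 beside CG8229 (390), and chaperones 6 of 20 (30%), led by Hsc70-5 beside CG8531 (785) and DnaJ-H beside Sirt1 (619). The vacuolar ATPase had 4 of 14 (28.6%), led by Vha100-2 beside Vti1b (917) and Vha55 beside Snx3 (168). Translation factors had 7 of 29 (24.1%), led by eIF4EHP beside CG18428 (1404) and eIF3h beside senju (443). Nuclear pore and transport had 6 of 25 (24%), led by Nup37 beside RpS27 (508) and Kap-alpha3 beside Son (455). Splicing had 9 of 38 (23.7%), led by U2af50 beside PIG-Q (689) and Sf3b6 beside Tnpo (482). The proteasome had 5 of 26 (19.2%), led by Rpn5 beside Hat1 (620) and Prosbeta2 beside mRpL39 (246).

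No gene of 3 families with restricted expression was in such a pair with a summit. Chemoreceptors had 0 of 27 (up to 12.5% by the Wilson interval), and cuticle proteins and cytochrome P450 genes 0 of 13 each (up to 22.8%). Few of their members are in opposite-strand pairs at all, with 15.1% of 179 chemoreceptors, 13.1% of 99 cuticle proteins and 15.3% of 85 cytochrome P450 genes. Of 61 developmental transcription factors 3 were in pairs, and the one with a summit was E(spl)mdelta-HLH beside CG43116 (571), named here after its value was seen.

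Few pairs had both genes listed. Among the 2720 pairs, both genes were listed in 54, and in 16 of those they were in the same list. Of the 16, 2 had a summit (12.5%), against 26.9% of all pairs. RPA1, the large subunit of the single-strand DNA binding complex, lies beside Mcm2, a subunit of the replicative helicase, and had 261 in replicate 2 and 266 in replicate 3 (3R, 8264781 to 8264975). Exo84, of the exocyst, lies beside Vps2, of ESCRT-III, and the stronger of its peaks had 156 in replicate 2 with none in replicate 3 (merged 305). Pairs with at least 1 listed gene had a summit in 203 of 657 cases (30.9%), against 529 of 2063 pairs with no listed gene (25.6%).

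The DNA at the summits was rich in A and T. In windows reaching 100 bp to either side of the summit, GC content averaged 31.8% ± 6.20 at shared promoters (SD over regions), 34.3% ± 7.13 at other promoters and 33.8% ± 6.07 elsewhere. A run of 20 or more bases without G or C, a measure chosen after sequences had been seen, occurred in 21.8% of windows at shared promoters (19.0 to 24.9%), 13.6% at other promoters and 11.9% elsewhere. Within shared promoters, GC content was 30.4% in the strongest quintile and 33.9% in the weakest. At the midpoint of head-to-head pairs it was 30.9% where a summit was near both starts and 35.1% where none was. With the distance between the starts held at 200 to 299 bp these were 31.1% and 33.1%, and at 300 to 399 bp 27.2% and 30.1%. GC content bears on the recovery of DNA fragments in sequencing, and its part in the signal was not tested.

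The same windows were read on both strands for motifs, by their letters alone. The DREF element TATCGATA, which also holds the shorter BEAF-32 core CGATA, was at 9.22% of summits at shared promoters (69 of 748, 7.35 to 11.5%), 3.27% at other promoters and 0.365% elsewhere. It was within 100 bp of the midpoint in 8.11% of head-to-head pairs with a summit near both starts and in 8.73% of those without. Of windows of equal length centred 120 bp upstream of all protein-coding starts, 5.24% held it. The Ohler motif 1 core GGTCACAC was at 3.34% of summits at shared promoters (25 of 748), 1.05% at other promoters and 0.547% elsewhere. It was at the midpoint of 2.28% of the pairs with a summit (1.41 to 3.66%) and 6.59% of those without (5.56 to 7.79%), and at 2.61% of all the upstream windows. Both motifs were thus more frequent at shared-promoter summits than at other summits. At the midpoints, the DREF share differed by less than the counting error between pairs with and without a summit, and the motif 1 core was rarer where there was a summit. With the distance between the starts held at 200 to 299 bp, the core was at 2.04% of midpoints with a summit (0.796 to 5.13%) and 4.78% without (2.96 to 7.62%), and at 300 to 399 bp at 0.610% and 3.06%, with intervals that overlapped in both ranges.

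Among the peaks themselves both motifs were rarer where the signal was high. From the strongest to the weakest quintile of shared-promoter peaks, the DREF element was at 2.67%, 6.04%, 11.3%, 12.1% and 14% of summits, and the motif 1 core at 0%, 1.34%, 2.67%, 4.70% and 8%. With 0 of 150 in the strongest quintile, the Wilson interval reaches 2.50%. The BEAF-32 core followed the same order, from 31.3% in the strongest quintile to 49.3% in the weakest. The TATA box letters TATAAA ran the other way, from 54.7% to 42%, with intervals that overlapped. In replicate 2 alone the DREF element was at 1.84% of the strongest and 12.9% of the weakest quintile, and in replicate 3 alone at 2.61% and 8.50%. GC content moved with the signal as well, and so did the median distance from the nearer start, 119.5 bp in the strongest and 86.5 bp in the weakest quintile; their part in these shares was not tested.

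**Figure D5:**
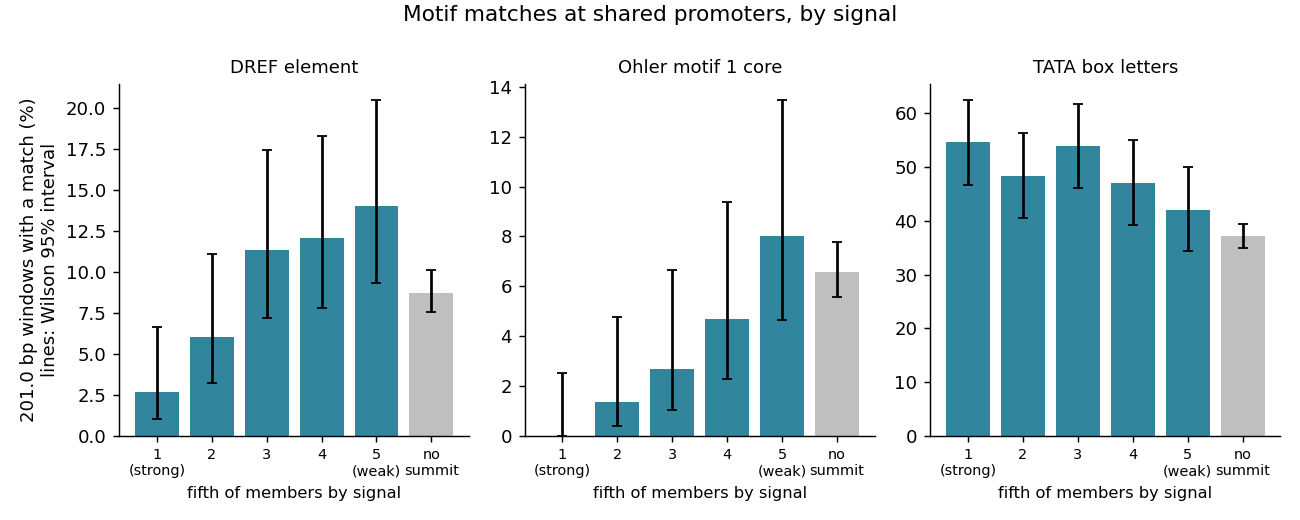
Share of 201 bp windows with a match (vertical axes, percent) to the DREF element, the Ohler motif 1 core and the TATA box letters, in quintiles of shared-promoter peaks by signal (blue, strongest at the left) and at the midpoint of head-to-head pairs with no summit near both starts (grey); lines are 95% Wilson intervals. The DREF element goes from 2.67% to 14% and the motif 1 core from 0% to 8%, while TATAAA goes from 54.7% to 42%.

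Of the other motifs, TATAAA was at 49.2% of summits at shared promoters (45.6 to 52.8%), 39.1% at other promoters and 39.5% elsewhere, and at 34.4% of all the upstream windows. The GAGA element GAGAG was at 12.4% of summits at shared promoters, 22.6% at other promoters and 19.96% elsewhere, against 25.3% of the upstream windows. The E-box CAGCTG was at 11.5%, 7.95% and 4.69% of summits in that order of classes, against 10.9% of the upstream windows and 12.9% of the midpoints of pairs without a summit. The letters CAGTGC, reported before as frequent under the summits of the whole list, were at 12.03% of summits at shared promoters, 14.1% at other promoters and 19.96% elsewhere, against 9.71% of the upstream windows. The upstream windows had a mean GC content of 39.0%. It was 31.8% at shared-promoter summits, 34.3% at other promoters and 33.8% elsewhere. The part of GC content in the shares of these motifs was not tested, so neither enrichment nor depletion is read from them.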

How the data were processed

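ChIP-seq region lists of whole white prepupae were analysed, 2 biological replicates in 1 group. Per the file headers and accompanying descriptions, the authors deposited a list per replicate, a merged list and an IDR list on dm6, each with a signal in the caller's units and a −log10 q-value. The signal was used to rank regions and the q-value was not used. The aligner is not given in the sources used here, nor are the caller, its thresholds and the IDR cutoff. Lists on dm3 were not used. At shared-promoter peaks the ratio of the merged signal to both replicate signals added together had a median of 1.00, so the signal rises with the data behind a list.

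Starts of all annotated transcripts came from BDGP6.54 (Ensembl release 115), with 13968 protein-coding genes on the chromosome arms, and sequence from the RefSeq copy of dm6; positions are 1-based. A pair was a plus-strand and a minus-strand gene with starts at most 1000 bp apart. A replicate region matched when it overlapped by at least 1 bp. Shares carry 95% Wilson intervals and densities exact Poisson intervals. The scripts used Python 3.11.15, numpy 2.4.6, pandas 2.3.3 and scipy 1.17.1. The test on simulated peaks covered the rule that picks the members and not the other steps.

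The members, the 23 gene lists and the 11 motifs were chosen with earlier results of these data known; Rrp1, a repair nuclease, was then taken out of the ribosome biogenesis list for its identity. Genes named are those of the 12 strongest members, of which 1 pair is not reported here, the 2 strongest pairs of each list with at least 3 genes in pairs with a summit, same-list pairs, the extremes between replicates, those at the 500 bp limit, and the strongest member with 3 or more genes. Alternatives were windows of 250 and 1000 bp, the stronger 50% of the IDR list, each replicate alone, outermost starts, 1 peak per pair, interval midpoints and other motif windows.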

Additional observations from a re-analysis of the deposited data

How the results depend on the processing

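No paired analysis was possible because the 2 replicates belong to the same group. Within 250 bp of both starts 442 regions and 480 pairs were counted, in place of 748 and 732, and the share of pairs with a summit was 23.6%, against 26.9% at 500 bp; at 1000 bp it was 23.8%, with the stronger 50% of the list 20.1%, and with 1 replicate left out it ranged from 27.5% to 29.0%. The median rank of the shared-promoter peaks, as a percentage of the list, was 30.3%; it was 23.6% at 250 bp, 34.1% at 1000 bp, 38.1% within the stronger 50% of the list, 27.5% with 1 peak per pair, and from 31.0% to 33.2% with 1 replicate left out. All of these stayed under 50%. The share of summits between the starts was 78.6% with outermost starts only, and the share in both replicate lists was 91.2% with summits at most 100 bp apart and 90.2% among the strongest regions of each replicate list. With 50 bp either side of the summit the DREF element was at 3.88% and the motif 1 core at 1.07% of summits, with 200 bp at 19.3% and 12.6%; the other 9 motifs moved the same way with the length searched. GC content within 50 bp was 29.9%. Shares and counts that rise or fall with the window or the number of regions do so by construction; for the other moved values the cause was not tested. Of the alternatives added after seeing the data, outermost starts gave 17.6% of pairs with a summit at 100 to 199 bp and 36.9% at 200 to 299 bp, and the stronger 50% of the list 14.6% and 30.3%. Leaving out peaks with a doubly matched replicate region, also added then, moved the share past 1.5-fold between replicates to 9.10%, in place of 9.96%. Counts of listed genes in pairs with a summit were 160 with the stronger 50% of the list and 258 at 1000 bp, in place of 213. Without replicate 2 the DREF share of the weakest quintile was 8.50%, in place of 14%. The remaining alternatives stayed within the counting interval, the spread between replicates or 1.5 times the count. Read depth is unknown, so regions below the lists were not detectable here.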

Other observations

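The 35 shared-promoter peaks lacking from a replicate list were not only weak ones. The merged signal less that of the replicate with a region was between 52.2 and 465, with a median of 141, over the 33 whose region in that replicate was matched to no other peak, while the weakest region listed had 15.1 in replicate 2 and 16.9 in replicate 3. At SerRS with CG17260 the remainder was 465, and at EMC6 with Hr96 it was 338. In 34 of the 35 the nearest summit of the list without the region was over 500 bp away. A reason was not tested.

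CG10631 itself is not among the genes of the 748 peaks.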
